A study of Mus musculus with 19 samples.

Results

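Nicotinic acetylcholine receptors are pentameric cation channels that open when acetylcholine binds, and their subunits are encoded by separate genes. Receptors built from alpha 4 and beta 2 subunits and receptors built from alpha 7 alone are the common forms of the central nervous system. Autonomic ganglia use alpha 3 with beta 4 and alpha 5, and skeletal muscle uses alpha 1. In the spinal cord, motor neurons release acetylcholine onto muscle and, through side branches of their axons, onto Renshaw cells, inhibitory interneurons known for the alpha 2 subunit.

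The 10 subunit genes described here, Chrna1 to Chrna7 and Chrnb2 to Chrnb4, were picked by name from 55487 genes listed in 19 mouse RNA sequencing libraries, and 16 genes in the tables are annotated as nicotinic subunits. They were chosen with results of these libraries known, in particular a lower Chrna2 in the LNA cultures, so culture values of the 10 genes are given as a description, and other genes of the pathway were tested there. The materials were whole spinal cords and motor neurons made from embryonic stem cells, and the series asks what the microRNA miR-146a does in motor neuron degeneration. Of the cord libraries, 9 carry the genotype label miR-146a KO and 4 are labelled wild type. The 6 culture libraries came from wild-type RW.4 cells, a mouse embryonic stem cell line, differentiated with retinoic acid and SAG, a Smoothened agonist. Of these, 3 received 10 nM miR-146a LNA and 3 received 10 nM control LNA with Lipofectamine 2000 for 72 h. An LNA is a chemically locked oligonucleotide that binds a microRNA and blocks it. The sources used here do not give strain, sex, age, litter or batch, how the knockout allele was made, or whether each library had its own animal or differentiation. The p-values therefore measure the spread between these libraries only, and all cultures share 1 cell line.

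Cord libraries held 28163289 to 39577247 counts and culture libraries 40647549 to 65471742. The limit of detection was set at 3 counts, which in CPM (counts scaled to a common library total) is 0.0758 to 0.1065 for a cord and 0.0458 to 0.0738 for a culture. Pttg1, a gene near the miR-146a locus, had 14.9 to 17.4 normalised CPM (CPM after TMM scaling) in the wild type and 1.06 to 1.81 in 8 knockout cords. The remaining one, the library labelled knockout replicate 9, held 13, which goes against its label, and had 1950 normalised CPM of Sod1 against 191 to 275 in the other cords. Knockout replicate 7 held 2560 normalised CPM of skeletal actin Acta1 against at most 6.03 in any other cord. The precursor gene of miR-146a gave 1 count over all 19 libraries together, in knockout cord replicate 5, so the counts give no check of the knockout itself. Of 10 motor neuron markers, 5 were higher on average in control cultures than in wild-type cords and 5 were lower. Mnx1 stood at 69.8 ± 3.75 TPM (SD, n = 3), a unit that also divides by gene length, in control cultures against 5.47 ± 0.772 (SD, n = 4) in wild-type cords. Isl1 stood at 202 ± 16 against 1.03 ± 0.172 TPM, while the neurofilament gene Nefh stood at 122 ± 1.43 against 963 ± 158 and Uts2 at 0.424 ± 0.147 against 68.1 ± 12.3. Of 6 astrocyte markers 5 had counts in control cultures, all but Aqp4, and they summed to 9.54 to 10.6 TPM against 1740 to 2640 in wild-type cords. Of 6 pluripotency markers 5 had counts there, all but Nanog, with a sum of 2.24 to 3.1 TPM. In the LNA cultures these markers summed to 3.23 to 5.74 TPM. Of 2 that were tested between the culture groups, 0 were called by edgeR, beside 8.56% of all genes. The part of such cells in other culture values was not tested.

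A microRNA pairs with messenger RNAs mainly through bases 2 to 8 from its 5′ end, the seed. The mature sequences of miR-146a-5p and its relative miR-146b-5p, which carries the same seed, come from RefSeq (GRCm38.p6). They are shown with the seed in capitals. The library labels name miR-146a without a strand, and matches to its other mature product, miR-146a-3p, were not searched. miR-146a-5p lies at chr11:43374435-43374456 on the minus strand and miR-146b-5p at chr19:46342790-46342811 on the plus strand.
miR-146a-5p: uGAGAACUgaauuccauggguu
miR-146b-5p: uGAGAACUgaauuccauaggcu

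The longest annotated 3′ UTR of each subunit gene (GENCODE M21, GRCm38) was searched for AGTTCTC, the complement of bases 2 to 8, and for GTTCTC, the complement of bases 2 to 7, which lies within it. Among 20983 mouse genes with a 3′ UTR, 11.1% held the longer match and 29.5% the shorter one. Chrna1 and Chrnb3 held the longer match, and Chrna2 and Chrna4 held only the shorter one. Chrna3, Chrna5, Chrna6, Chrna7, Chrnb2 and Chrnb4 held neither. The matches of the 4 genes, with a single shorter match of Chrnb3 and of Chrna1 left out, read as follows with the matched letters in capitals.
Chrna1: taggagttAGTTCTCatctttta
Chrna2: accaagtttGTTCTCtgtcttgg
Chrna4: aaacaccgtGTTCTCcccattcc
Chrnb3, first match: actatgacAGTTCTCtaaggcag
Chrnb3, last match: acctttgaAGTTCTCctcagtcc
For Chrna2, whose 3′ UTR has 1872 bases, 42% of genes with a 3′ UTR of like length (within 20%) held the shorter match and 14.3% the longer one. Among genes of like length, the longer match stood in 21.8% for Chrna1 and 21.5% for Chrnb3. The shorter one stood in 50.6% for Chrna4. A match describes the letters and is not evidence of binding.

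Levels of different genes were compared in TPM. In wild-type cords Chrna4 led with 62.5 ± 2.93 TPM (SD, n = 4), followed by its usual partner Chrnb2 with 28.3 ± 0.739 and by Chrna7 with 16 ± 0.831. Chrna2 followed at 3.7 ± 0.783 and Chrna3 at 2.17 ± 0.481. These 5 genes did not overlap with their neighbours in this order. Chrnb4 (1.13 ± 0.27), Chrna6 (0.812 ± 0.377), Chrna5 (0.688 ± 0.208) and Chrna1 (0.449 ± 0.193) overlapped each with the next, and Chrnb3 was lowest at 0.0785 ± 0.0499. The knockout cords gave the same order of means, with neighbouring ranges overlapping from Chrna2 downwards. Together the 10 genes summed to 116 ± 3.5 TPM in wild-type and 109 ± 13.2 TPM in knockout cords (SD, n = 4 and 9). Chrna4 and Chrnb2 supplied 78.4% ± 1.14 of that sum in wild-type and 78.8% ± 1.85 in knockout cords.

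**Figure D1:**
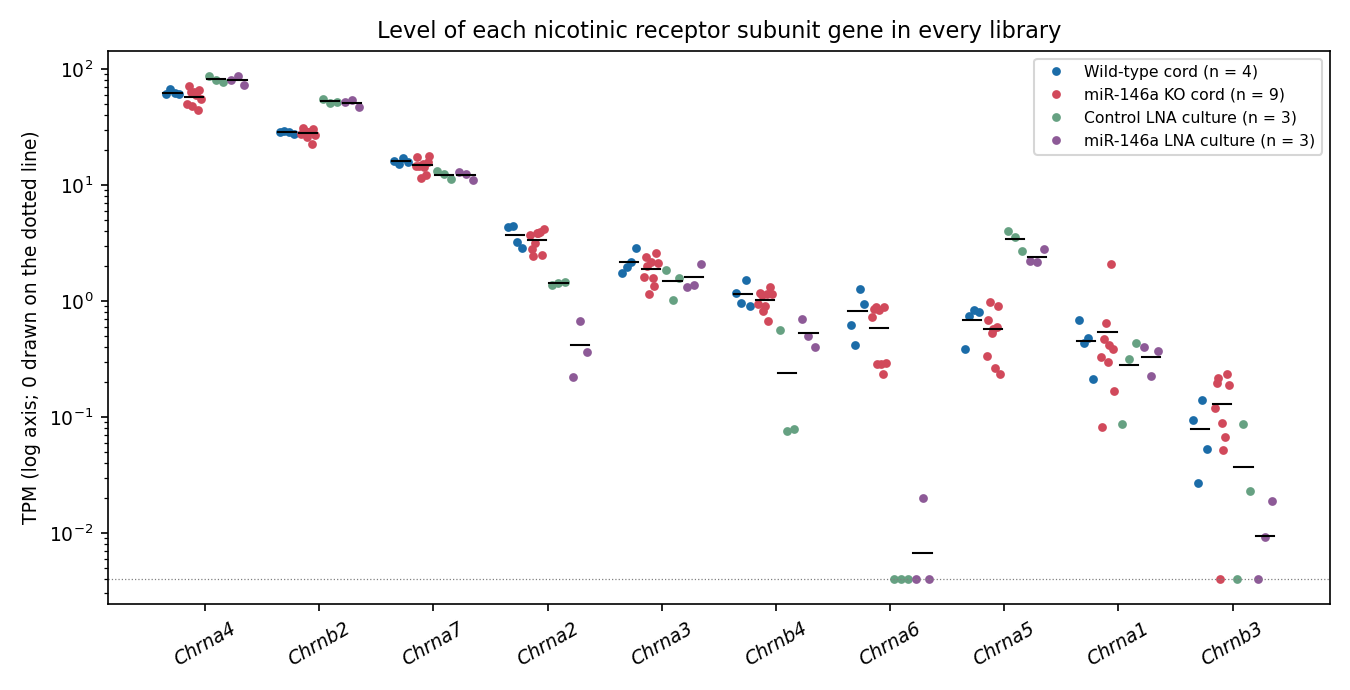
Level of each nicotinic subunit gene in every library, in TPM on a log axis, by group; bars mark group means and libraries with no count are drawn on the dotted line. Chrna4, Chrnb2 and Chrna7 lead in all 4 groups, Chrna2 spreads from cords down to the LNA cultures, and Chrna6 is near 0 in cultures.

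The cultures kept the 3 leading genes and changed the order below them. Control cultures held Chrna4 at 81 ± 5.43, Chrnb2 at 52.6 ± 2.38 and Chrna7 at 12.3 ± 0.983 TPM (SD, n = 3). Chrna5, an accessory subunit that joins alpha and beta pairs, came next at 3.41 ± 0.669 TPM, which was 4.95 times its level in wild-type cords. Chrnb2 was 1.86 times and Chrna4 1.3 times as high as in wild-type cords. In the other direction, wild-type cords exceeded control cultures 4.74-fold for Chrnb4 (14.9-fold without control replicate 1), 2.62-fold for Chrna2 and 1.31-fold for Chrna7. None of these 6 genes overlapped between the materials, while Chrna1, Chrna3 and Chrnb3 did. The share of all genes that separate the 2 materials was not computed, so the count is no trait of these genes. Chrna6 was listed at 0 in all control cultures and at 0.812 ± 0.377 TPM in wild-type cords. The ratio of Chrna4 to Chrnb2 was 2.21 ± 0.0655 in wild-type cords and 1.54 ± 0.0608 in control cultures. Cell type, age of the cells and handling of the material cannot be told apart in these differences, and no test was made.

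In knockout against wild-type cords, edgeR's quasi-likelihood test called 0 of 10 subunit genes, beside 0 of all 22174 genes tested (0% called). At an unadjusted p under 0.05 it passed 0 of 10, beside 3177 of all genes (14.3%). DESeq2 called 0 of 10 beside 348 of 23706 genes (1.47%), and limma called 0 of 10 beside 3 genes (0.0135%). Of the 10 genes, 8 had a negative fold change, with a median log2 fold change of -0.18, while 46.9% of all tested genes were negative with a median of 0.017. No gene's knockout libraries lay wholly above or below the wild-type libraries, which held for 0.505% of all tested genes above and 0.798% below. All 10 genes passed the filter on low counts. Chrnb3 passed it through 5 libraries at or above 0.284 CPM, of which 4 were knockout.

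The most abundant pair came first in size of counts. Chrna4 (ENSMUSG00000027577; chr2:181018380-181043546, minus strand) measured 95.3, 111, 99.2 and 103 normalised CPM in wild-type replicates 1 to 4. Knockout cords ran from 69.7 in replicate 7 through a median of 96.6 to 114 in replicate 2. Below every wild-type library lay 4 of 9 knockout libraries, and 1 lay above all of them. The log2 difference was -0.17 (SE 0.11, 95% interval -0.40 to 0.05) with an edgeR adjusted p of 0.478. Chrnb2 (chr3:89746195-89764632, minus strand) measured 74.6, 80.8, 74.8 and 78.5 in wild-type cords and 58.5, 76 and 81.5 as the lowest, median and highest of the knockout. The lowest was again replicate 7 and the highest replicate 2. Its log2 fold change was -0.08 (SE 0.08, interval -0.24 to 0.07, adjusted p 0.623 by edgeR). Chrnb2 shares 1365 exon bases with Adar on the opposite strand, and the strand setting of the counting is not given in the sources used here, so reads there are uncertain.

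Chrna7 (chr7:63098692-63212569, minus strand), which forms calcium-permeable receptors on its own, measured 22.6, 22.4, 24.3 and 24.5 normalised CPM in wild-type cords. Knockout cords ran from 16.6 in replicate 4 through 21.4 to 24.8 in replicate 2, with 7 of 9 below every wild-type library and 1 above. The difference in means was -2.62 normalised CPM, and an exact two-sided permutation test over 715 splits gave p = 0.0713, the smallest possible being 0.0014. The same test on the other 9 genes gave 0.172 (Chrna4) to 0.884 (Chrna1). The log2 fold change was -0.17 (SE 0.09, interval -0.35 to 0.01, adjusted p 0.402 by edgeR). Leaving out knockout replicate 7, the exact permutation p was 0.105, and without replicates 7 and 9 it was 0.103.

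Chrna2 (ENSMUSG00000022041; chr14:66135039-66152948, plus strand) measured 5.13, 5.5, 3.84 and 3.69 normalised CPM in wild-type cords. In knockout cords it ran from 2.86 through a median of 4.46 to 4.68, so every knockout library lay below the highest wild-type libraries and 3 of 9 lay below all of them. The wild-type libraries themselves fell into a higher and a lower pair. The log2 fold change was -0.19 (SE 0.17, interval -0.53 to 0.15, adjusted p 0.617 by edgeR, exact permutation p 0.28). The difference between this value and that of the cultures was not tested.

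**Figure D2:**
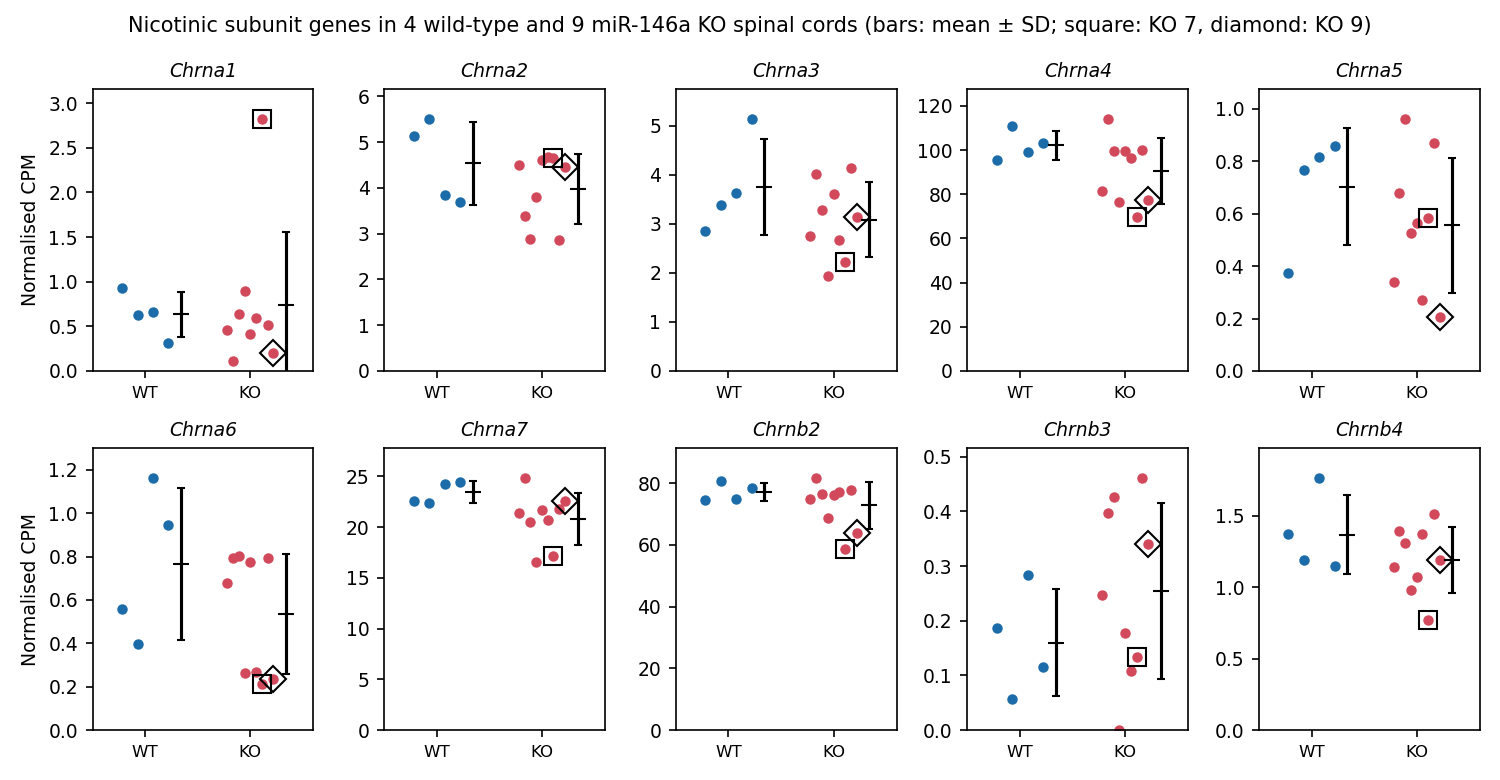
Normalised CPM of the 10 genes in 4 wild-type and 9 knockout cords, with mean ± SD beside the points; an SD that reaches below 0 is drawn to 0, a square marks knockout replicate 7 and a diamond replicate 9. The groups overlap for every gene, Chrna7 has 7 of 9 knockout points below the wild type, and Chrna1 has a single high point in replicate 7.

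The ganglionic genes Chrna5, Chrna3 and Chrnb4 lie side by side on chromosome 9, with 2.33 kb between Chrna5 and Chrna3 and 1.59 kb between Chrna3 and Chrnb4. Chrna3 (chr9:55010111-55026562) measured 2.86, 3.38, 3.62 and 5.13 normalised CPM in wild-type cords and 1.93, 3.13 and 4.14 as lowest, median and highest of the knockout. Knockout minus wild type was -0.28 on the log2 scale (SE 0.21, adjusted p 0.529 by edgeR). Chrnb4 (chr9:55028154-55048779) measured 1.37, 1.19, 1.76 and 1.15 against 0.771, 1.19 and 1.51, a log2 difference of -0.20 (SE 0.20, adjusted p 0.673 by edgeR). Chrna5 (chr9:54980880-55007779) was lower, at 0.373, 0.766, 0.818 and 0.859 against 0.204, 0.565 and 0.961, a log2 difference of -0.34 (SE 0.38, adjusted p 0.709 by edgeR). All 3 genes of the cluster had negative fold changes whose intervals included 0. Of 12 markers of autonomic and sensory ganglia, 10 had counts in wild-type cords, where they summed to 17.9 to 26.9 TPM, and in the knockout they summed to 14.6 to 32.1.

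Chrna6 and Chrnb3, subunits known from catecholamine neurons and retina, are neighbours on chromosome 8, 3.48 kb apart. Chrna6 measured 0.559, 0.397, 1.16 and 0.945 normalised CPM in wild-type cords and 0.213, 0.678 and 0.801 in the knockout, with 4 of 9 below every wild-type library. On the log2 scale the knockout differed by -0.51 (SE 0.44, adjusted p 0.593 by edgeR). Chrnb3 measured 0.186, 0.0567, 0.283 and 0.115 in wild-type cords and 0, 0.247 and 0.46 in the knockout, near the limit of detection. The log2 difference of 0.67 (SE 0.68, adjusted p 0.67 by edgeR) was within its error, so no difference was detectable at this depth.

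Chrna1 (chr2:73563215-73580338, minus strand), the acetylcholine-binding subunit of muscle, measured 0.932, 0.624, 0.661 and 0.315 normalised CPM in wild-type cords. Knockout replicate 7 held 2.82 (106 counts), while the other knockout cords held 0.113 to 0.898 (4 to 34 counts). Knockout minus wild type was 0.23 on the log2 scale (SE 0.64, adjusted p 0.893 by edgeR) and turned to -0.38 without replicate 7. All 12 skeletal muscle markers had counts in the knockout group and in the wild-type group. In knockout replicate 7 they summed to 9660 TPM, against 11.9 to 14.5 in the other knockout cords and 10.8 to 28.7 in the wild type. The part of that muscle RNA in the Chrna1 value was not tested, but the direction of the group difference rested on this library. Chrnb1, the muscle beta subunit, was also highest in replicate 7 at 7.34 normalised CPM. Knockout replicate 4 held 6.02, and the highest wild-type library 3.43. Knockout and wild-type means were 4.41 ± 1.52 (SD, n = 9) and 2.81 ± 0.425 (SD, n = 4). Its log2 fold change was 0.65 (adjusted p 0.297 by edgeR). It ran from 0.54 to 0.76 when any 1 library was left out, so its direction did not rest on replicate 7. Fewer cells of a type and less RNA per cell cannot be told apart in these bulk cords.

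Across the 13 cords, the subunit genes varied together in places. After group means were subtracted from log2(CPM + 0.5), 45 pairs of genes were compared, each with 100000 permutations within groups and Benjamini-Hochberg adjustment over the pairs. Chrna4 and Chrnb2 had Pearson r = 0.91 (permutation p 2e-05, adjusted 0.0009) and Spearman rho = 0.92 (p 4e-05, adjusted 0.0018). Without the 2 libraries farthest from the median of Chrna4, r was 0.85. Chrna3 and Chrna7 had r = 0.82 (p 0.00057, adjusted 0.0114) and rho = 0.80 (p 0.00177, adjusted 0.0265), and r = 0.78 without the 2 libraries farthest from the median of Chrna3. Chrna1 ran the other way from Chrna7, with r = -0.84 (p 0.00076, adjusted 0.0114) and rho = -0.86 (p 0.00042, adjusted 0.00945). Its r was -0.76 without the 2 libraries farthest from the median of Chrna1. These 3 of 45 pairs passed the adjustment by both measures. Within the 9 knockout cords alone, r was 0.91, 0.87 and -0.85 for the same pairs. The share of other gene pairs that would pass was not computed, so the count is not particular to subunits. Some non-member genes, given below, had higher r with Chrna4 and with Chrna7 than these partners had. Libraries share their dissection and their depth, and the part of either was not tested.

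For the 6 subunits with a mean of at least 1 normalised CPM in cords, the non-member genes most like each were found by Pearson r over the same 13 libraries among 16735 genes, as a description with no test. Chrna4 was closest to Slc8a3, a sodium and calcium exchanger (r = 0.97, and 0.98 without the 2 farthest libraries), Lingo3 (0.97) and Dnm1, the synaptic dynamin (0.97). Chrnb2 was closest to Tmem179, Snap47 and Clpp (each 0.97), and Chrna7 to Adcy3 (0.93), an adenylyl cyclase, Pim2 (0.93) and Tmem163 (0.92). Chrna2 was closest to Slc45a3 (0.93, and 0.87 without the 2 farthest), Klhl2 (0.91) and March8 (0.89). Chrna3 was closest to Pard6b (0.91), Tox3 (0.91) and Fam98c (0.89), and Chrnb4 to Trim23 (0.91), Pcdhac2 (0.91) and Klhl23 (0.89). A search over this many genes returns high values by its construction.

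RefSeq promoters were at hand for 7 of the 10 genes, as 250 bases upstream of a start site on GRCm38.p6. Those of Chrna4, the most abundant member, and Chrna1, the muscle gene, are shown as a CpG-rich and a CpG-poor example, with every CpG in capitals. The promoter of Chrna4 is chr2:181039178-181039427 and that of Chrna1 is chr2:73580339-73580588, both on the minus strand.
Chrna4: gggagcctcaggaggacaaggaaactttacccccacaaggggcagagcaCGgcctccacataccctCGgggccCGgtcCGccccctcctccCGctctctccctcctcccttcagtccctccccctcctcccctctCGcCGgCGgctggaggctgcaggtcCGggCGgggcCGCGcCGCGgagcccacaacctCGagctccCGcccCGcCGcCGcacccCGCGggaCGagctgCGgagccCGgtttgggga
Chrna1: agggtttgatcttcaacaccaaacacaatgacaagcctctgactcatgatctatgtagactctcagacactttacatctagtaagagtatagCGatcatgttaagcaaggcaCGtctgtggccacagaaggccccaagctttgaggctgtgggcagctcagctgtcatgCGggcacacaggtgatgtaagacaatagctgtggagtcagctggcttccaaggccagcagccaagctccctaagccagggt
The Chrna4 promoter held 24 CpG, more than 88% of 32851 promoters, and the Chrna1 promoter held 3, more than 29%. Chrna7 held 25 and Chrnb2 10, against a median of 6. The GC box, GGGCGG on either strand, stood in 32.7% of all promoters and in those of Chrna4, Chrna7, Chrna3 and 1 of 2 starts of Chrna5. A match describes these letters only.

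In the cultures, where the lower Chrna2 was a reason for choosing these genes, 8 of 10 passed the filter on low counts. Of the 8, 1 was called by edgeR, Chrna2 as lower, beside 1635 of 19099 genes in all (8.56%) and 1177 lower (6.16%), with 2.4% called higher. DESeq2 gave an adjusted p for 6 of the 10 and called 1, Chrna2, beside 14.4% of all genes. Limma called 2 of 8, Chrna2 and Chrnb4, beside 11.5%. Chrnb4 reached the cutoff of 0.173 CPM in 3 LNA cultures and only 1 control, so it passed the filter through the group where it was high and its call is no support. The fold changes had a median log2 of -0.02 and 5 of 8 were negative, while all tested genes had a median of 0.008 with 48.5% negative. Only Chrna2 had groups that did not overlap, lower in the LNA, as did 15.1% of all tested genes, and no member lay wholly higher, as did 12.8%. These counts are a description, since this comparison chose the genes.

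Chrna2 stood at 1.38, 1.41 and 1.44 normalised CPM (82, 77 and 75 counts) in control replicates 1 to 3. In the LNA cultures it stood at 0.219, 0.665 and 0.371 (9, 44 and 23 counts). Each LNA culture was below each control culture, and the LNA cultures spread more widely than the controls. The means were 1.41 ± 0.0297 and 0.418 ± 0.227 (SD, n = 3 each), with a log2 fold change of -1.70 (SE 0.37). It ran from -2.21 to -1.43 when any 1 library was left out.

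The abundant subunits stood close together. Chrna4 measured 115, 105 and 101 normalised CPM in controls and 107, 113 and 98.1 with the LNA (log2 fold change -0.02, SE 0.06). Chrnb2 measured 122, 112 and 115 against 116, 118 and 106 (-0.04, SE 0.06), and Chrna7 15.7, 14.5 and 13.4 against 15.2, 14.6 and 13.4 (-0.02, SE 0.10). For all 3 genes the groups overlapped, and the sign turned when counts were scaled by library size alone. Within each sum of 10 genes, Chrna4 and Chrnb2 supplied 87.5% ± 0.458 in control and 88.3% ± 0.751 in LNA cultures (SD, n = 3 each).

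Chrna5 measured 3.28, 2.93 and 2.21 normalised CPM in controls and 1.83, 1.75 and 2.35 with the LNA (log2 fold change -0.50, SE 0.23). The groups overlapped through control replicate 3 and LNA replicate 3. Chrna3 measured 2.57, 1.41 and 2.19 against 1.85, 1.89 and 2.95 (0.12, SE 0.27), with no separation. Chrnb4 measured 0.555, 0.0732 and 0.0767 (33, 4 and 4 counts) against 0.682, 0.484 and 0.403 (28, 32 and 25 counts), a log2 fold change of 1.11 (SE 0.65). Control replicate 1 stood with the LNA cultures, and without it the log2 fold change was 2.75.

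Among the scarce genes, Chrna1 measured 0.101, 0.366 and 0.499 normalised CPM in controls and 0.463, 0.257 and 0.435 with the LNA (log2 fold change 0.25, SE 0.56). Its groups overlapped. Any bearing of the longer seed match in its 3′ UTR, shown above, on these few counts was not tested. Chrnb3 gave 0, 8 and 2 counts in controls and 0, 1 and 2 with the LNA, too few to fit. Chrna6 gave 0 counts in all controls, which allows up to 0.0178 CPM over the group, and 1 count with the LNA.

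**Figure D3:**
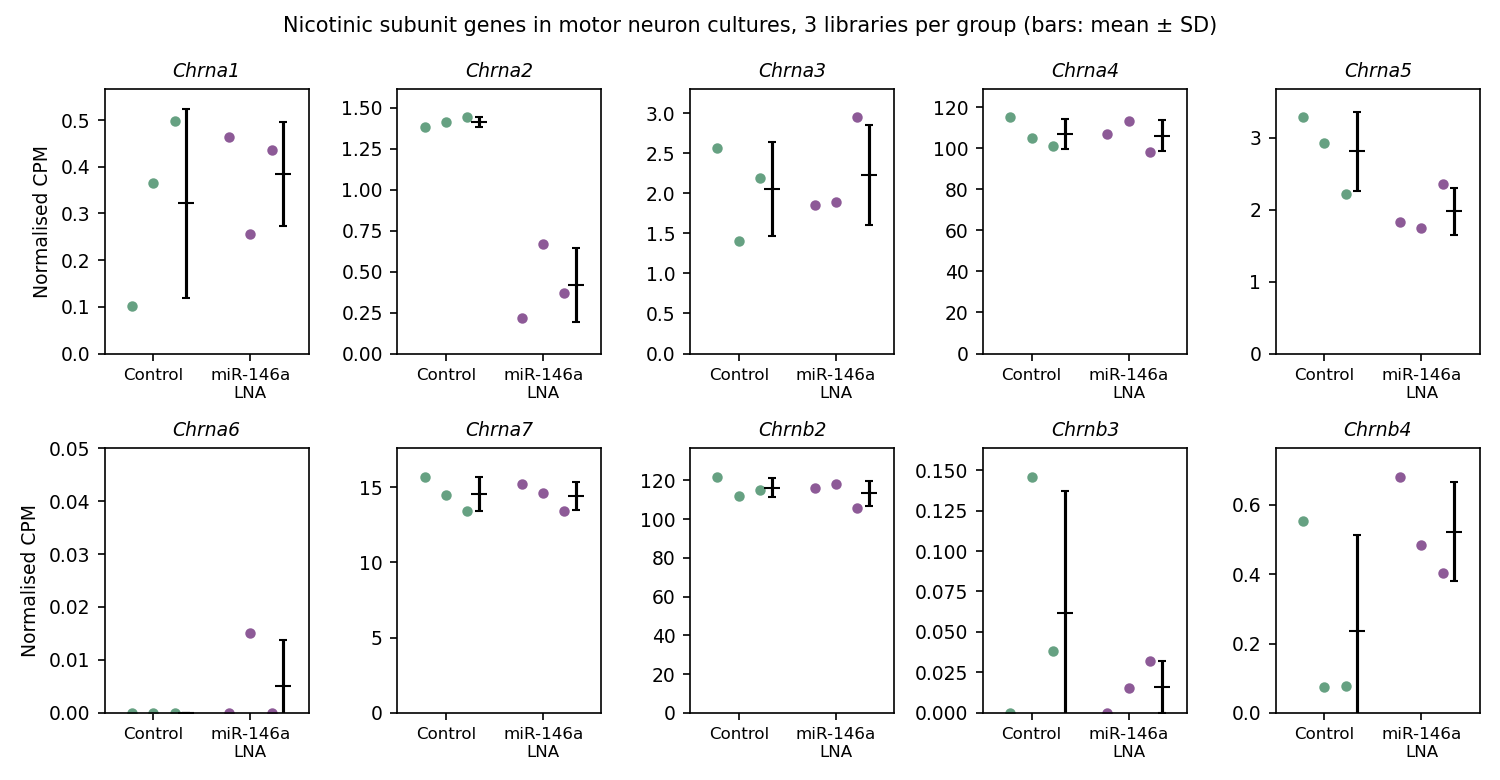
Normalised CPM of the 10 genes in 3 control and 3 miR-146a LNA cultures, with mean ± SD beside the points; an SD that reaches below 0 is drawn to 0. Chrna2 is the gene whose groups do not overlap, and Chrnb4 is low in 2 of 3 controls.

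**Figure D4:**
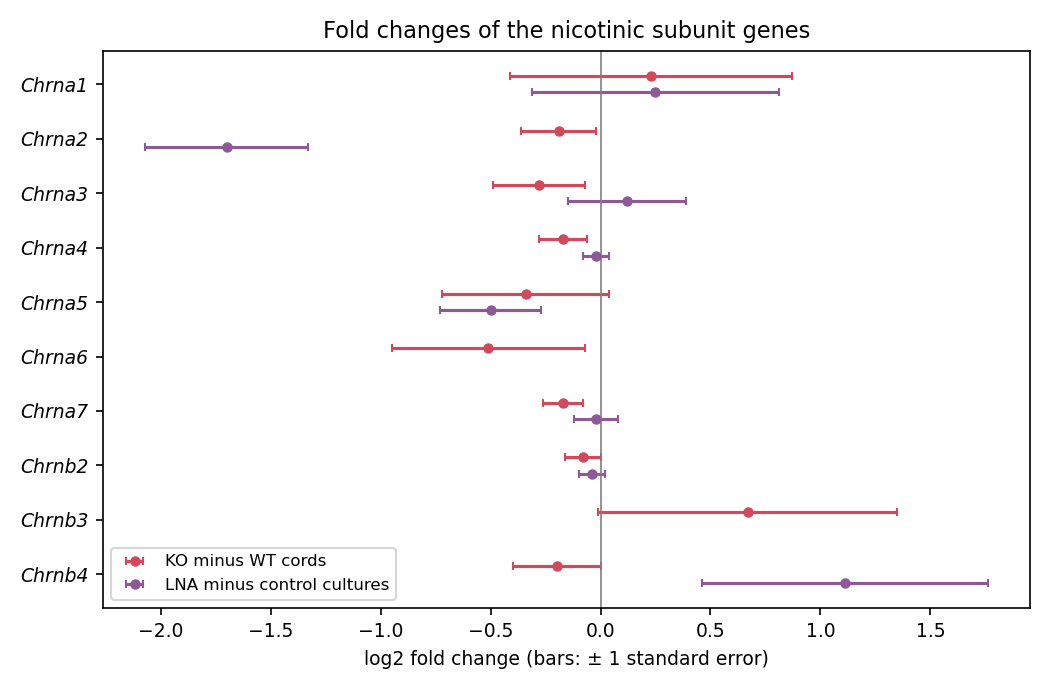
Log2 fold changes of the nicotinic subunit genes by edgeR, knockout over wild-type cords and LNA over control cultures, with bars of ± 1 standard error; Chrna6 and Chrnb3 were not fitted in the cultures. Chrna2 stands at -1.70 in the cultures and at -0.19 in the cords.

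The rest of the cholinergic pathway was read from lists in the order of transmission. Of 7 genes that make, transport or break down acetylcholine, 7 had negative fold changes in knockout cords, beside 46.9% of all genes. Their median log2 was -0.28 against 0.017 over all genes, and 0 were called. Of 6 oligodendrocyte markers, 6 were negative as well. Acetylcholinesterase Ache stood at 196 ± 24.9 normalised CPM in knockout and 243 ± 12.5 in wild-type cords (log2 -0.31, SE 0.09, adjusted p 0.292 by edgeR). In the cultures, where 8.56% of all genes were called, 2.4% higher and 6.16% lower, 1 of 7 was called, Bche, the butyrylcholinesterase gene, which rose by a log2 of 0.45 (SE 0.10, adjusted p 0.011 by edgeR). That call was lost without control replicate 2 or control replicate 3.

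Chaperones and Ly6 proteins that help nicotinic receptors assemble or tune them gave 0 of 11 calls in cords. Of these 11, 9 were negative, beside 46.9% of all genes, and the median log2 was -0.15. The alpha 7 chaperone Tmem35a stood at a log2 of -0.23 (SE 0.08, adjusted p 0.292 by edgeR) and the receptor modulator Lynx1 -0.18 (SE 0.08, adjusted p 0.337). In the cultures 1 of 10 was called, beside 8.56% of all genes. It was Lypd1, which rose by 0.45 (SE 0.11, adjusted p 0.0184 by edgeR). The Lypd1 call was lost without LNA replicate 2, control replicate 2 or control replicate 3.

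Among organisers of the neuromuscular synapse, 0 of 6 were called in cords (median log2 -0.08) and 1 of 4 in cultures, beside 8.56% of all genes. Musk, the gene of the muscle kinase MuSK, had no counts in any culture. Lrp4, Rapsn and Colq stood at 0.13, 0.252 and 0.184 TPM in control cultures. Dok7, the adaptor of that kinase, fell by 0.35 on the log2 scale (SE 0.07, adjusted p 0.00277 by edgeR) and was called without any 1 library. In cords it stood at a log2 of -0.23 (SE 0.09, adjusted p 0.294 by edgeR).

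The muscarinic receptors are the other family of acetylcholine receptors and act through G proteins. In cords 0 of 5 were called, with a median log2 of -0.01. In cultures 2 of 3 tested were called lower, beside 6.16% of all genes. Chrm3 fell by 0.64 on the log2 scale (SE 0.08, adjusted p 5.24e-05 by edgeR), from 41.6 ± 0.98 to 26.7 ± 2.33 normalised CPM (SD, n = 3 each), and was called without any 1 library. Chrm2 fell by 0.19 (SE 0.06, adjusted p 0.042), a call that was lost on leaving out any library but LNA replicate 3 and with scaling by library size.

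Because Chrna2 is known for Renshaw cells, a list of 12 markers for Renshaw cells and the V1 interneurons they belong to was read beside it. The list includes Slc32a1, Slc6a5, Gad1 and Gad2, which are genes of inhibitory neurons in general. In cultures 10 of 12 were negative with a median log2 of -0.36, beside 48.5% of all genes negative. Of the 12, 3 were called lower, beside 6.16% of all genes: Gad1, Gad2 and Slc6a5, which make or carry inhibitory transmitters. All 3 are among the general inhibitory genes, and edgeR called no other gene of the list. Gad1 fell by 1.07 on the log2 scale (SE 0.17, adjusted p 0.000575 by edgeR) and kept its call without any 1 library. Slc6a5, the glycine transporter, fell by 1.19 (SE 0.31, adjusted p 0.0357) and lost its call without control replicate 1, without any 1 LNA library and with scaling by library size (adjusted p 0.0521). Gad2 fell by 0.44 (SE 0.10, adjusted p 0.0123) and lost its call without control replicate 1 or 3. Calb1, a calcium buffer of Renshaw cells, stood at 36.4 ± 3.84 TPM in control and 44.4 ± 5.47 in LNA cultures, with an edgeR adjusted p of 0.0532. Against the direction of the list, it was called higher with median-ratio scaling (log2 0.29, adjusted p 0.0482) and with scaling by library size (0.33, adjusted p 0.0221). The other positive gene was the V1 marker En1, at a log2 of 0.22 (adjusted p 0.859 by edgeR). En1 was scarce, at 0.337 TPM in control cultures. The 12 markers summed to 96.8 to 113 TPM in control and 88.6 to 103 in LNA cultures, and all 12 had counts in both. The part of such cells in the Chrna2 values was not tested.

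Of 9 motor neuron markers tested in the cultures, 9 were positive with a median log2 of 0.23 and 3 were called higher, beside 48.5% of all genes negative and 2.4% called higher. With scaling by library size, 741 of 1572 called genes were higher, against 458 of 1635. Isl1 rose by 0.31 (SE 0.06, adjusted p 0.00177), Chodl by 1.75 (SE 0.23, adjusted p 8.59e-05) and Calca by 0.67 (SE 0.14, adjusted p 0.0273), all by edgeR. Calca lost its call without control replicate 2 or any 1 LNA library. The markers summed to 3490 to 3610 TPM in control and 3640 to 3980 TPM in LNA cultures. Among markers of other cells in the cultures, Trpv1 of 8 tested ganglion markers rose by 1.54 (adjusted p 0.0487) and Slc1a2 of 4 astrocyte markers fell by 0.45 (adjusted p 0.0212), both by edgeR. Both calls were lost without control replicate 2, among other libraries. In knockout cords 0 of 12 Renshaw and V1 markers and 0 of 10 motor neuron markers were called, with median log2 values of 0.08 and -0.33.

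**Figure D5:**
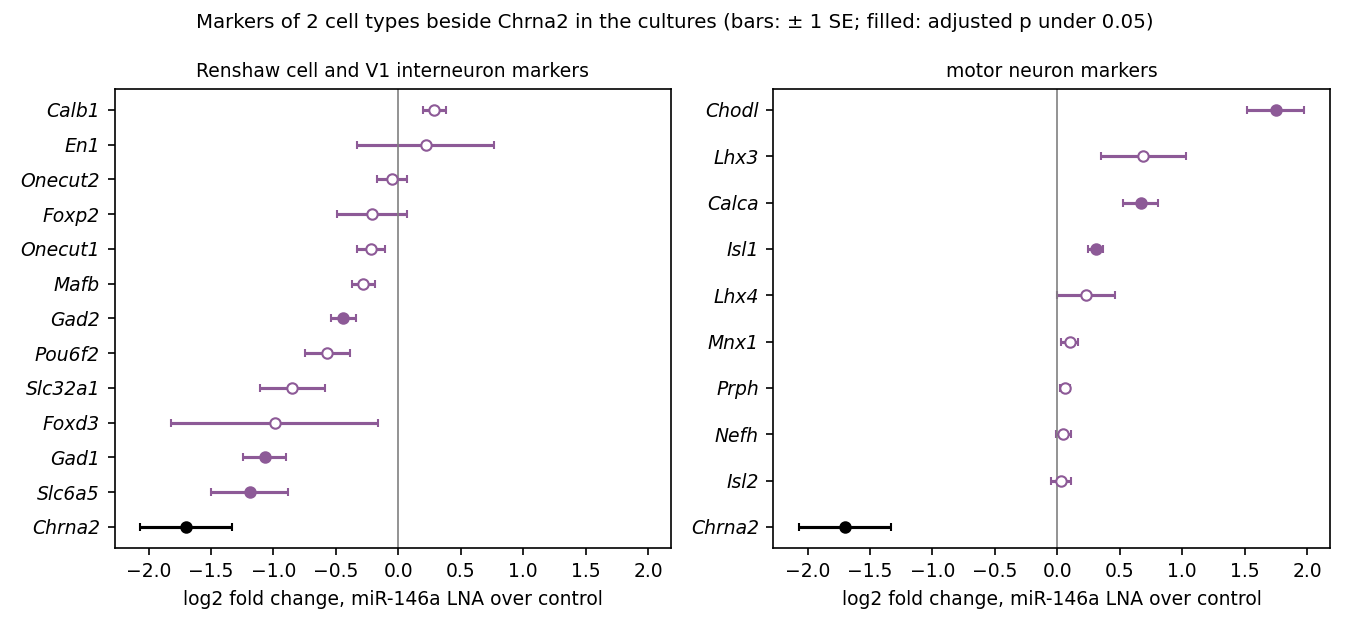
Log2 fold changes, LNA over control cultures, with bars of ± 1 standard error, for Renshaw cell and V1 interneuron markers and for motor neuron markers; filled points have an edgeR adjusted p under 0.05 and Chrna2 is drawn in black for its place only. Of the interneuron list, which includes general inhibitory genes, 10 of 12 lie below 0, and of the motor neuron markers 9 of 9 lie above.

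Markers of other cells spread more widely in knockout than in wild-type cords. The 6 microglia markers summed to 214 to 786 TPM against 218 to 280, the 6 astrocyte markers to 1880 to 6070 against 1740 to 2640, and the 6 red blood cell markers to 140 to 2920 against 93.6 to 170. The highest sum of each was in knockout replicate 7, where Chrna4, Chrnb2, Chrna6 and Chrnb4 were at their lowest. Over all 13 cords edgeR called none of these markers, though Alas2 and Slc4a1, of the red blood cell list, were each called in 1 of 13 fits that left out 1 library. DESeq2 called 6 of 6 red blood cell markers and 0 of the microglia and astrocyte markers. Their part in the subunit values was not tested. Oligodendrocyte markers summed to 4940 to 7460 TPM against 5080 to 7340.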

How the data were processed

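Per the series' design notes, ribosomal RNA was removed, fragments were primed with random hexamers and paired ends were read. Per the submitters' processing notes, reads were aligned with STAR 2.7.9a1 to GRCm38, and featureCounts counted genes. For the strand setting and the handling of duplicates: not given in the sources used here. The authors deposited, per library, a whole-number count of reads per gene, used in every test. The deposited CPM column equals the count scaled by the library sum in all 19 libraries. The TPM column deposited by the authors gave levels between genes, and the FPKM column deposited by the authors was not used further.

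Symbols and positions came from GENCODE M21 (GRCm38), with a symbol for 55227 genes (99.5%). The 10 genes, the 15 lists and the tests were chosen with earlier results of these data known. Libraries were grouped by label alone, and cord replicate numbers only name libraries. No replicates matched within sampling noise (smallest chi-square per degree of freedom 6.42). Each comparison was fitted to its own groups with edgeR 4.0.16 in R 4.3.3, robust quasi-likelihood, default filter and TMM scaling, and Benjamini-Hochberg adjustment over all tested genes at 0.05. Normalised CPM is TMM-scaled CPM. Standard errors come from the fold change and F value. Limits of 3 counts cover counting error only. Alternatives were a replicate block in the cultures, leaving out libraries, scaling and filtering in other ways, testing against a fold of 1.5, DESeq2 1.42.0, and limma 3.58.1 (voom, quality weights). The permutations without knockout replicates 7 and 9, the correlations within the knockout and the folds between materials without 1 library were added after seeing the data. The tests were tested on simulated data. Named genes were the members, called list genes or otherwise up to 3 of high level, the 3 genes most like each member, and Pttg1 and Sod1. Of the called list genes, 1 is not reported here.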

Additional observations from a re-analysis of the deposited data

Results flagged for a closer look

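Chrna1 in knockout cord replicate 7 stood at 2.82 normalised CPM, far above the other 8 knockout cords, whose highest value was 0.898. It was the only extreme value among 20 sets of libraries examined for the 10 genes in knockout and wild-type cords, where chance alone marks about 1 in 20.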

How the results depend on the processing

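In cords, the count of genes called moved from 0 to 348 with DESeq2, 3 with limma and 8 without knockout replicates 7 and 9 together, and leaving out 1 library gave 0 to 2. In each of these the 10 subunit genes had 0 calls. Chrna1 turned negative in cords with limma (log2 -0.34), without knockout replicates 7 and 9 (-0.26) and without replicate 7, the range on leaving out 1 library being -0.38 to 0.49. In cultures, a fold threshold of 1.5 left 4 genes and 0 subunit genes called, and leaving out 1 library gave 778 (without control replicate 2) to 1985 genes, 1059 without control replicate 1, and 1 to 2 subunit genes. Limma called 2 subunit genes, with Chrnb4 at 1.91, and so did edgeR without control replicate 1, but Chrnb4 passed the filter through the LNA cultures. With scaling by library size, 831 of 1572 called genes were lower, against 1177 of 1635, and the median log2 over all genes moved by 0.045.

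Subunit genes near 0 in cultures changed sign. Limma gave 0.01 for Chrna4 and 0.01 for Chrna7, and scaling by library size gave 0.03 for Chrna4, 0.03 for Chrna7 and 0.01 for Chrnb2. Leaving out 1 library gave -0.18 to 0.71 for Chrna1, -0.14 to 0.32 for Chrna3, -0.07 to 0.04 for Chrna4, -0.07 to 0.04 for Chrna7 and -0.07 to 0.01 for Chrnb2. The cause was not tested. Culture libraries of the same number did not deviate together (r = 0.010, -0.050 and 0.006 over genes), so the numbers were not taken as pairs. With a replicate block edgeR called 1793 genes and 1 subunit gene, Chrna2 at -1.81, and changed no other call of a subunit gene. Cord replicate numbers follow accession order and pair nothing. Depth limits Chrna6 and Chrnb3 in cultures and Chrnb3 and Chrna1 in cords, where libraries hold few counts.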
